A study of Mus musculus with 4 samples.

Results

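Lipolysis enzymes and lipid droplet coats were examined here as 10 genes, out of 22180 genes with a value in these arrays: the lipases Pnpla2, Lipe and Mgll, the lipase regulators Abhd5 and G0s2, the perilipins Plin1, Plin2, Plin4 and Plin5, and the droplet fusion protein gene Cidec. A gene counted when a probe set on the array was annotated with its symbol and no other, and its probe set with the highest mean was used. All 10 were found. The samples were brown adipose tissue of 4-month-old male C57BL/6 mice fed chow. There were 2 samples from Tsku knockout mice (KO) and 2 from wild-type mice (WT), with 1 whole-transcript array each. Tsku encodes tsukushi, a secreted small leucine-rich proteoglycan. The labels give no allele, promoter or Cre for the knockout, and they call the samples biological replicates without saying that each came from a separate animal, so a p-value speaks only of the variation among these 4 samples, part or all of which may be technical.

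Fat is stored as triglyceride in droplets that are covered by a protein coat and opened for use by a chain of lipases. Adipose triglyceride lipase, the product of Pnpla2, removes the first fatty acid, hormone-sensitive lipase (Lipe) acts on the diglyceride that is left, and monoglyceride lipase (Mgll) releases the last fatty acid. In brown fat these fatty acids both fuel the mitochondria and activate the uncoupling protein UCP1. Abhd5 encodes CGI-58, the coactivator of adipose triglyceride lipase, and G0s2 encodes its inhibitor. Perilipin 1 holds CGI-58 at the droplet until protein kinase A phosphorylates it, which is how an adrenergic signal starts lipolysis.

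Values are normalized log2 expression as the authors deposited them, so 1 unit is a 2-fold step, and levels of different genes cannot be set against each other because each probe set has its own brightness. All 10 genes were above background on all 4 arrays, where background is the 95th percentile, on that array, of 1405 probe sets of odorant and pheromone receptors. Between 50.2% and 53.6% of all genes were above it. Of 11 measured brown adipocyte markers, 10 were above background on all 4 arrays, Ucp1 and Cidea among them. Tsku had 0 listed probe sets, so the genotypes rest on the labels. The genotypes were compared gene by gene in limma, with Benjamini-Hochberg adjustment over all 22180 genes, and an adjusted p under 0.05 was required to call a gene changed.

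The perilipin genes and Cidec, together called the 5 coat genes here, were all higher on average in the knockout. The lipase and regulator genes lay on both sides of 0. The differences of Plin1, Plin2, Plin4, Plin5 and Cidec lay between 0.21 and 0.43 on the log2 scale, with a median of 0.27. Among the 5 lipase and regulator genes the median was -0.02. Abhd5 (0.32, within the range of the coat genes) and Mgll (0.18) were higher, and Pnpla2 (-0.02), Lipe (-0.03) and G0s2 (-0.22) lower or level. None of the 10 passed the test, with limma adjusted p-values from 0.875 to 0.994. In this fit an unadjusted limma p under 0.05 was reached by 0 of the 10, with a smallest value of 0.101, against 5.56% of all genes. The count was made in this fit only, and the standard errors behind it differed in other fits. Over all genes 0% passed the adjusted threshold, and the smallest limma adjusted p was 0.0624. Whether the coat genes and the lipases differed from each other was not tested.

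**Figure D1:**
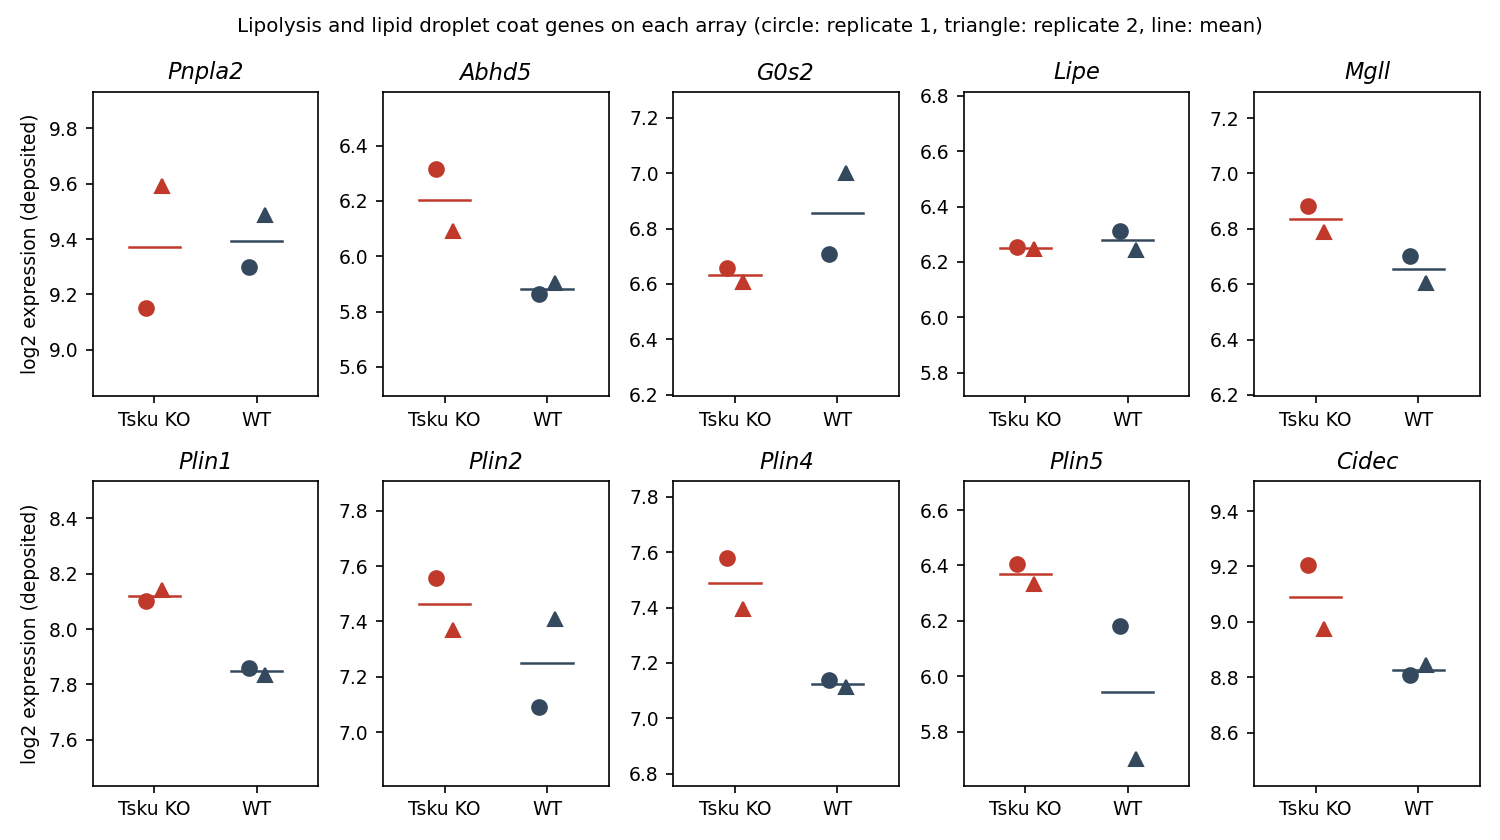
Deposited log2 expression of the 10 genes, 1 panel a gene, with Tsku KO on the left (red) and WT on the right (grey), circles for replicate 1, triangles for replicate 2 and a line at each mean of 2 arrays. Every panel spans 1.1 log2 units, and its level is that of the gene's own probe set. Both KO arrays lie above both WT arrays for Abhd5, Mgll, Plin1, Plin4, Plin5 and Cidec, and below them for G0s2.

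Pnpla2, whose product starts the breakdown of triglyceride, measured 9.15 and 9.59 in KO and 9.30 and 9.49 in WT. The 2 KO arrays enclosed both WT arrays, so the genotypes overlapped. Its mean was 9.37 ± 0.31 (SD, n = 2) in KO and 9.39 ± 0.13 in WT, a log2 difference of -0.02 with a 95% interval from -0.58 to 0.53. The direction rested on single arrays: the difference was 0.20 without KO replicate 1, -0.24 without KO replicate 2 and 0.07 without WT replicate 2.

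Abhd5, the coactivator of that lipase, read 6.32 and 6.09 in KO and 5.86 and 5.90 in WT. Both KO arrays were higher than both WT arrays. The log2 difference was 0.32 (95% interval -0.14 to 0.79), or 1.25-fold, and it was 0.21 without KO replicate 1 and 0.43 without KO replicate 2.

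G0s2, the inhibitor, measured 6.66 and 6.61 in KO and 6.71 and 7.001 in WT. Both KO arrays were lower, but the lower WT array was only 0.05 above the higher KO array. The log2 difference was -0.22 (95% interval -0.71 to 0.26), and it was -0.08 without WT replicate 2 and -0.37 without WT replicate 1. G0s2 was the 1 gene of the 10 with a second probe set. That one was dim, at 1.78 and 1.21 in KO and 0.99 and 1.05 in WT, above background on all 4 arrays, and ran the other way. With the mean of both probe sets the log2 difference of G0s2 was 0.13, so its direction depends on the probe set used.

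Lipe, which encodes hormone-sensitive lipase, had the most even values of the 10 genes, with 6.25 on both KO arrays and 6.31 and 6.24 on the WT arrays. Its log2 difference was -0.03 (95% interval -0.47 to 0.41), which is a range from 0.723-fold to 1.33-fold. Mgll, for monoglyceride lipase, gave 6.88 and 6.79 in KO and 6.70 and 6.60 in WT. The KO arrays lay above the WT arrays by a gap of 0.09, which is smaller than the distance of 0.095 between the KO arrays. The log2 difference of Mgll was 0.18 (95% interval -0.27 to 0.63).

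Plin1 encodes the main coat protein of adipocyte droplets. It measured 8.10 and 8.14 in KO, against 7.86 and 7.83 in WT. The gap of 0.24 between the genotypes was larger than the distance between the 2 arrays of either genotype, as it also was for Plin4. How many of all genes have such a gap was not counted, so this only describes the values. The means of Plin1 were 8.12 ± 0.03 (SD, n = 2) in KO and 7.85 ± 0.02 in WT, a log2 difference of 0.27 or 1.21-fold (95% interval -0.16 to 0.71). The difference stayed between 0.25 and 0.29 with each array left out in turn. The interval is wider than the 4 values alone would give, because limma draws the variance of each gene toward that of all genes. The standard error was 0.18 in this fit and 0.02 with the variance of Plin1 alone. The fit had 2 residual degrees of freedom, to which limma added 3.96 from all genes.

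Plin4 and Plin5 are neighbours on chromosome 17, with 0 other protein-coding genes between them in the reference annotation, and they had the 2 largest differences of the 10 genes. Plin4, which coats small, newly formed droplets in cultured adipocytes, measured 7.58 and 7.39 in KO and 7.14 and 7.11 in WT. The lower KO array was 0.25 above the higher WT array. The log2 difference was 0.36 (95% interval -0.10 to 0.82), or 1.29-fold. Plin5, the perilipin of oxidative tissues, which links droplets to mitochondria, measured 6.40 and 6.33 in KO and 6.18 and 5.70 in WT. Both KO arrays were higher, and the distance between the WT arrays was 0.48, more than the log2 difference of 0.43 (95% interval -0.13 to 0.98, 1.34-fold). WT replicate 2 set the size of that difference, which was 0.19 without it and 0.67 without WT replicate 1.

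Plin2, the coat protein found on droplets of most cell types, gave 7.56 and 7.37 in KO and 7.09 and 7.41 in WT. The genotypes overlapped, and the log2 difference was 0.21 (95% interval -0.30 to 0.72), 0.05 without WT replicate 1 and 0.37 without WT replicate 2. Cidec, whose product passes lipid from small droplets to larger ones, measured 9.21 and 8.98 in KO and 8.81 and 8.84 in WT. Both KO arrays were higher. The log2 difference of Cidec was 0.27 (95% interval -0.20 to 0.73), and it was 0.15 without KO replicate 1 and 0.38 without KO replicate 2.

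**Figure D2:**
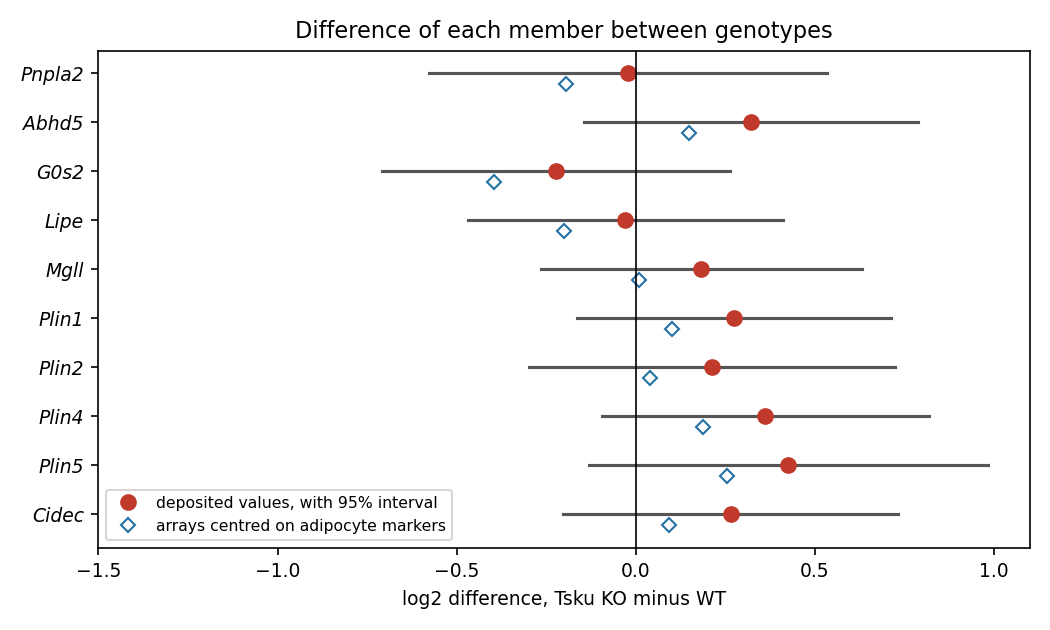
Log2 difference of each gene, Tsku KO minus WT, from limma on the deposited values (red circles, bars for the 95% interval) and after every array was centred on its adipocyte markers (open diamonds). All 10 intervals hold 0. The 5 coat genes at the bottom stay to the right of 0 in both versions, between 0.04 and 0.25 in the second. Abhd5 and Mgll do so as well, at 0.15 and 0.01 in the second.

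In 6 of the 10 genes both KO arrays lay above both WT arrays, where 19.4% of all genes did so, and in 1 of the 10, G0s2, they lay below, where 15.8% of all genes did. Taken in either direction this was 7 of 10 genes against 35.2% of all genes. Among the 9927 genes above background on all 4 arrays the shares were close to these, at 18.9% above, 17.6% below and 36.5% in either direction. The KO mean was the higher one in 7 of the 10 genes and in 52.6% of all genes, and the lower one in 3 of the 10 and in 47.4% of all genes. The median difference of the 10 was 0.24, against 0.02 for all genes. The genes were chosen as a pathway with earlier results of these data known, and they share the same 4 arrays, so these counts are a description. Against the WT mean of each gene, the median of the 10 was 0.28 on KO replicate 1 and 0.17 on KO replicate 2, and 8 of the 10 read higher on KO replicate 1. Without KO replicate 1 the median difference was 0.17, and without KO replicate 2 it was 0.28.

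The 95% intervals set what these arrays could still hold. In all 10 genes the interval lay inside a 2-fold change in either direction, which was so for 81.3% of all genes. The half-widths of the 10 ran from 0.438 to 0.557 on the log2 scale, near the median of 0.524 over all genes. None of the changes measured in the 10 genes, at most 1.34-fold, passed the threshold with 2 arrays a genotype. Over all genes no change of any size passed it.

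Markers of adipocytes were also higher on average in the knockout. Of 9 measured adipocyte markers 8 were higher on average in KO and 6 had both KO arrays above both WT arrays, where 19.4% of all genes did so. The median log2 difference of the list was 0.15, in a range from -0.03 to 0.57. Against the WT mean the median of the list was 0.18 and 0.13 on the KO arrays and 0.00 on both WT arrays. Adipoq, which encodes the hormone adiponectin, read 6.32 and 6.28 in KO and 6.06 and 6.05 in WT. The insulin-responsive glucose transporter gene Slc2a4 read 6.87 and 6.86 in KO and 6.59 and 6.58 in WT. The differences of Adipoq and Slc2a4, 0.25 and 0.28, were above the median of the list. In whole tissue a larger share of cells of a type and more RNA per cell cannot be told apart.

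When every array was centred on its adipocyte markers, a step chosen after the data were seen, every difference dropped by 0.17, and the median of all genes became -0.16. The 10 genes then had a median difference of 0.07. The difference of Plin1 was 0.10, of Plin2 0.04, of Plin4 0.19, of Plin5 0.25 and of Cidec 0.09. Abhd5 was at 0.15, Mgll at 0.01, Pnpla2 at -0.19, Lipe at -0.20 and G0s2 at -0.40. The number of genes with both KO arrays above both WT arrays was then 3 of 10, Abhd5, Plin1 and Plin4, against 6.83% of all genes, and both KO arrays lay below for Lipe and G0s2, 2 of 10, against 35.9% of all genes.

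Markers of some other cell types differed by more than the 10 genes did. All 14 skeletal muscle markers had a lower KO mean. Their median log2 difference was -1.87, and 10 of them were above background on all arrays. The muscle median against the WT mean was -1.30 and -2.49 on the KO arrays and -0.35 and 0.35 on the WT arrays. Plin5, Plin4, Plin2 and Pnpla2 are also used by muscle. The 10 measured liver markers, 5 of them above background on all arrays, had a median difference of 0.58, with 0.96 on KO replicate 1 and -0.02 on KO replicate 2, against 0.17 and -0.17 on the WT arrays. All 10 macrophage markers were lower, by a median of -0.53, with -0.84 on KO replicate 1 and -0.13 on KO replicate 2, against -0.06 and 0.06 on the WT arrays. The 8 endothelial markers had a median difference of -0.03 and the 7 fibroblast and progenitor markers one of -0.24. The part of these other cells in the differences of the 10 genes was not tested.

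**Figure D3:**
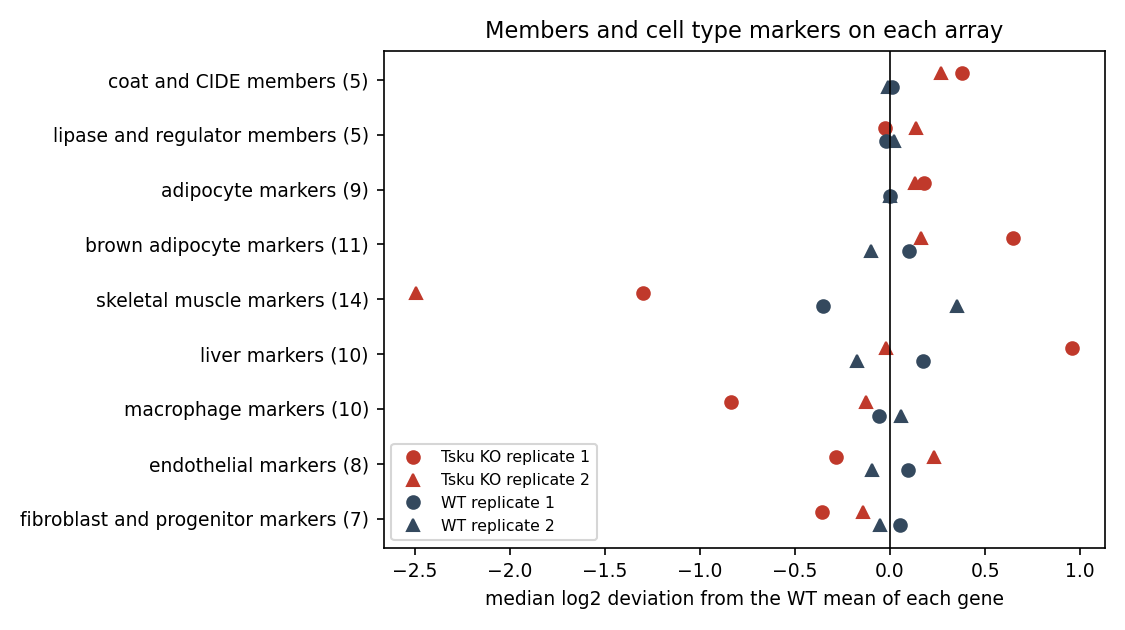
Median log2 deviation from each gene's WT mean on each array, for the 5 coat genes, the 5 lipase and regulator genes and 7 lists of cell type markers (number of measured genes in brackets); Tsku KO in red, WT in grey, circles for replicate 1 and triangles for replicate 2. The coat genes sit at 0.38 and 0.27 on the KO arrays, the adipocyte markers at 0.18 and 0.13, and the skeletal muscle markers at -1.30 and -2.49.

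Brown adipocyte markers were higher in 10 of 11 genes, with a median difference of 0.37, at 0.65 on KO replicate 1 and 0.16 on KO replicate 2, against 0.10 and -0.10 on the WT arrays. Cidea belongs to that list and to the protein family of Cidec. It read 9.44 and 9.52 in KO and 9.44 and 9.37 in WT, a log2 difference of 0.07. The 2 family members thus had differences of 0.27 for Cidec and 0.07 for Cidea, which were not tested against each other.

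The rest of the perilipin family and the other inhibitors of adipose triglyceride lipase were covered by a short list of 4 genes, of which 3 were measured. Plin3, the perilipin that moves to droplets from the cytosol, measured 6.30 and 6.25 in KO and 5.84 and 5.38 in WT. Its log2 difference of 0.66 (95% interval from 0.11 to 1.21, with an adjusted p of 0.872 in limma) was above those of the 4 perilipins among the 10 genes. Hilpda, an inhibitor of adipose triglyceride lipase, read 1.61 and 1.93 in KO and 1.57 and 0.69 in WT, with 1 of 2 WT arrays above background. None of the 3 passed over all genes, and 1, Plin3, had an unadjusted limma p under 0.05, which 5.56% of all genes had.

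Other intracellular lipid hydrolases numbered 17, with 11 higher and 6 lower in KO and a median difference of 0.18. None passed over all genes, and 5 had an unadjusted limma p under 0.05, which 5.56% of all genes had. Pnpla3, a relative of Pnpla2 that is induced with fat synthesis, measured 6.69 and 6.05 in KO and 5.33 and 4.98 in WT, a log2 difference of 1.22 against -0.02 for Pnpla2. Abhd6, a second monoglyceride hydrolase, measured 5.42 and 5.48 in KO and 4.74 and 4.62 in WT. The difference of Abhd6 was 0.77 (95% interval 0.32 to 1.22), against 0.18 for Mgll. The droplet-associated hydrolase gene Ldah differed by 0.78. Ces3a, a carboxylesterase gene abundant in liver, was not above background in WT. Its KO mean was 1.92-fold the WT background level, and the 95% interval of its fitted fold ran from 1.01 to 4.69. It read 2.35 on KO replicate 1 and 0.94 on KO replicate 2, with background at 0.81 and 0.70. On those arrays the liver marker medians were 0.96 and -0.02 against the WT mean. The part of liver cells in the Ces3a values was not tested.

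Among 15 measured genes of hormonal and cAMP control of lipolysis, 10 were higher and 5 lower, with a median of 0.13. None passed the threshold, and 2 had an unadjusted limma p under 0.05, which 5.56% of all genes had. Npr3, the receptor that clears natriuretic peptides, read 5.31 and 6.51 in KO and 7.32 and 6.996 in WT, a difference of -1.24 (95% interval from -2.23 to -0.26, with an adjusted p of 0.872 in limma). Npr1, the receptor through which those peptides stimulate lipolysis, differed by 0.41. Prkar2a, a regulatory subunit of protein kinase A, differed by -0.65, while the subunit gene typical of fat, Prkar2b, differed by 0.01 and the catalytic subunit gene Prkaca by 0.15. Akt2, the kinase of insulin signalling that restrains lipolysis, differed by 0.45 and Pde3b, the phosphodiesterase that acts in the same branch, by -0.18. The cAMP phosphodiesterase gene Pde4b had values of 0.57 and 1.11 in KO and 1.54 and 1.17 in WT, with 1 of 2 KO arrays above background.

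Genes of droplet formation and proteins associated with the coat gave 14 higher and 7 lower of 21, with a median of 0.09. None passed the threshold, and 2 had an unadjusted limma p under 0.05, which 5.56% of all genes had. Fitm1, a fat storage gene known mainly from muscle, read 1.06 and 1.15 in KO and 1.81 and 2.34 in WT. Its log2 difference was -0.97, in arrays where the skeletal muscle markers had a median of -1.87. The part of muscle cells in that difference was not tested. Fitm2, a relative of Fitm1, differed by 0.16. Hsd17b13, a droplet protein gene of liver, was not above background in WT and read 1.85 and 0.83 in KO. Its KO mean was 1.56-fold the WT background level, and the 95% interval of its fitted fold ran from 1.005 to 3.35. Of the enzymes that make triglyceride, Dgat1 differed by 0.34 and Dgat2 by 0.20. Bscl2, the gene for seipin at the droplet neck, differed by 0.36, Ubxn8 by 0.57 and Hsd17b11 by -0.35.

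The 15 transcription factors and coactivators known to act on these genes had a median difference of 0.08, with 12 higher and 3 lower. None passed the threshold, and 3 had an unadjusted limma p under 0.05, which 5.56% of all genes had. Pparg, the master regulator of adipocyte genes including several perilipins, differed by 0.09, Ppara by 0.08 and Cebpa by 0.05. Ppard, the third receptor of that family, measured 3.92 and 3.46 in KO and 2.59 and 2.23 in WT, a 2.42-fold difference, or 1.27 in log2 (95% interval from 0.67 to 1.88, with an adjusted p of 0.872 in limma). Rxrg, a partner receptor of the same class, differed by 0.90 and the lipogenic factor gene Srebf1 by 0.65. The coactivator gene Ppargc1b differed by -0.30. The median difference over all genes was 0.02.

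**Figure D4:**
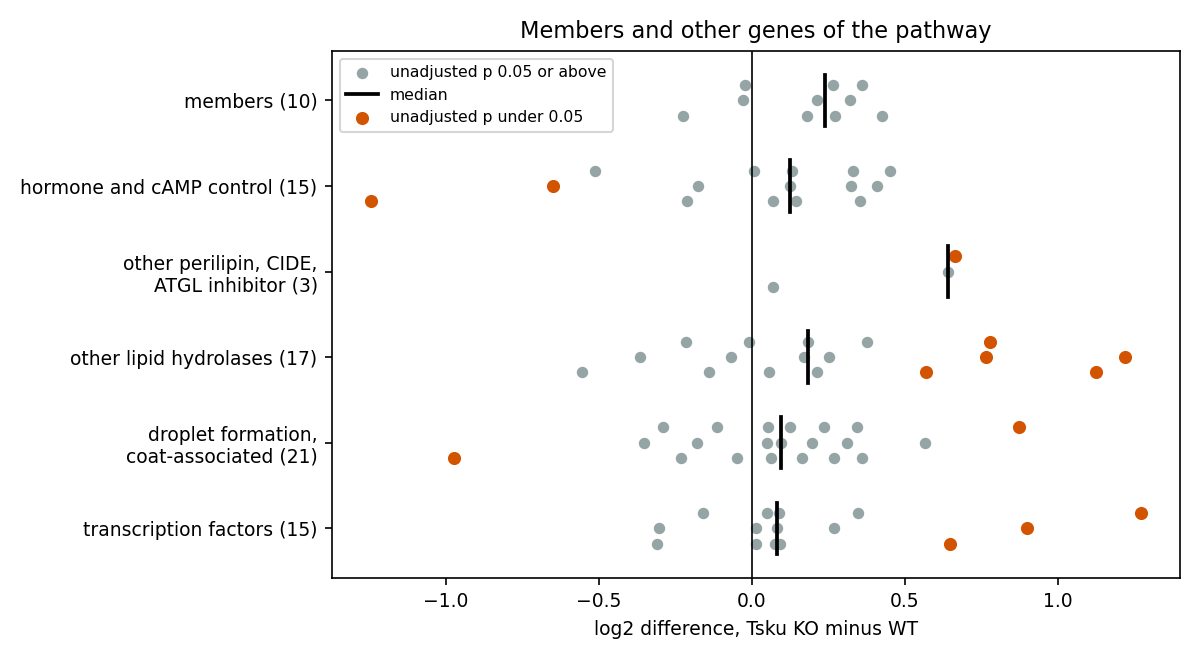
Log2 difference, Tsku KO minus WT, of the 10 genes and of the other genes of the pathway by list (number of measured genes in brackets). Each point is a gene, orange where the unadjusted limma p is under 0.05 (5.56% of all genes), and the black line is the median. The median of the 10 genes is 0.24 with 0 orange points, and none of the points passed over all genes. Genes not above background in a genotype, such as Ces3a and Hsd17b13, are drawn at their fitted difference.

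Promoter sequences of the genes were set beside these values because nuclear receptors of the Pparg class are known to act on several of them and because the coat genes lay on the same side. RefSeq starts (GRCm38.p6) gave 14 promoter windows for all 10 genes, each of 250 bases before and 50 after a start. AGGTCA, the half-site of these receptors, was searched on both strands and was found in 4 of the 14 windows, 2 of Plin5 and 1 each of Plin2 and Abhd5, and in 16.3% of 32851 mouse windows of the same length. CACGTG, the E-box bound by factors such as SREBP-1 and USF, was in 3 of the 14, those of Mgll, Lipe and Plin2, and in 7.15% of all windows. A strict form of the response element of these receptors was searched as well, an exact pair of such half-sites in the same direction with any single base between them. It was in 0 of the 14 and in 0.0396% of all windows. A match so rare would hardly be met in 14 windows, so its absence says nothing about these genes. No half-site and E-box overlapped in the windows of the 10 genes. The stretches of 54 bases around the matches that lie wholly before a start are shown 5′ to 3′ on the strand of the gene, with the match in capitals, and TGACCT is the half-site on the other strand. Those of Plin5 (chr17:56117689-56117742, minus strand), Abhd5 (chr9:122351523-122351576, plus strand) and Plin2 (chr4:86670248-86670301, minus strand) hold the half-site, and those of Mgll (chr6:88724344-88724397, plus strand) and Lipe (chr7:25396113-25396166, minus strand) hold the E-box.
Plin5: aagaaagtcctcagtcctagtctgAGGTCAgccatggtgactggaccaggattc
Abhd5: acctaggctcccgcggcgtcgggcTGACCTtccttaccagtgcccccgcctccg
Plin2: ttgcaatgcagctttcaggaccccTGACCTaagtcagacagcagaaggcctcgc
Mgll: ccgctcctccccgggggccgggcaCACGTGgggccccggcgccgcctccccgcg
Lipe: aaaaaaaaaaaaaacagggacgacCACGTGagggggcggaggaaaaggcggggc

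The 3 genes with a half-site had log2 differences of 0.43 for Plin5, 0.32 for Abhd5 and 0.21 for Plin2. Windows without a half-site belonged to genes with differences on both sides of 0, from Plin4 at 0.36 to G0s2 at -0.22. The 3 genes with an E-box differed by 0.18 for Mgll, -0.03 for Lipe and 0.21 for Plin2. A match is a description of these letters and shows no binding.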

How the data were processed

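Per the labels, biotinylated target from total RNA went on whole-transcript arrays. The table the authors deposited holds log2 values, already normalized, of 41345 probe sets on 4 arrays. The submitters' processing notes name RMA, oligo and limma but not what each did, and versions and a genome build are not given in the sources used here. The logarithm is taken as base 2 because RMA gives log2 values, and array medians of 0.56 to 0.58 point to an offset of unstated origin. It would cancel in differences, but not in levels, if it is a constant on the log2 scale, which the sources do not say. Probe sets with 1 gene symbol (23521) were kept, 1814 with several and 16010 with none listed were left out, and the brightest probe set stood for each of 22180 genes. The comparison used limma 3.58.1 in R 4.3.3 (lmFit, eBayes), two-sided, without a block, and the script was tested on simulated data.

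The 10 genes, the 5 pathway lists and the 7 marker lists were chosen with earlier results of these data known. Named are the 10 genes and, per pathway list, up to 4 genes with the smallest p above background on at least 2 arrays. Adipoq, Slc2a4, Npr1, Prkar2b, Prkaca, Pde3b, Fitm2, Dgat1, Dgat2, Bscl2, Pparg, Ppara, Cebpa, Cyp2b10 and Myot were added after their values were seen. Where no array of WT was above background, the fold is the KO mean against the higher of background and signal on each WT array. It is a lower bound with regard to the unmeasured WT signal only, and not with regard to the variation between arrays. The number of arrays limits the precision.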

Additional observations from a re-analysis of the deposited data

How the results depend on the processing

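Across 18 alternatives, none of the 10 genes passed the threshold in any (limma adjusted p from 0.619 to 1), and 7 kept their direction in all. The exceptions were G0s2, Pnpla2 and Lipe. G0s2 was at 0.13 with the mean and 0.48 with the most variable of its probe sets. With single arrays left out, Pnpla2 ran from -0.24 to 0.20 and Lipe from -0.0625 to 0.0054. Lipe was lowest, at -0.20, with arrays centred on the adipocyte markers. The median difference of the 10 genes was 0.17 to 0.28 with single arrays left out, and 0.0665 with arrays centred on the adipocyte markers. Over all genes, 1 gene was called with the replicate number taken as a block, 1 after median centring of the arrays and 1 with a mean trend, in each case Cyp2b10 (limma adjusted p = 0.025 with the block). With single arrays left out the count was 0 to 15: it was 15 without WT replicate 1 and 2 (Cyp2b10 and Myot) without WT replicate 2. Each of these fits has 1 array in a genotype, so the spread comes from the 2 arrays of the other genotype and the lone array is assumed to vary like them. Why the counts moved was not tested. The genotypes share only replicate numbers: deviations of same-numbered arrays from their genotype means had r = -0.0726 across 22180 genes, which are not independent. The block changed the call of none of the 10 genes. The standard error of the Plin1 difference was 0.18 in the main fit, 0.09 with a mean trend, 0.02 with unmoderated variance and 0.22 with the block. Unadjusted p-values of the 10 genes were not counted in the alternatives, so the count of 0 of 10 under 0.05 holds for the main fit only. Signal over background did not limit the 10 genes, and it did limit Hilpda, Ces3a, Hsd17b13 and Pde4b.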
